A study of Mus musculus with 6 samples.

Results

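The 33 genes described here form the glycolytic pathway and its transcriptional response to low oxygen: glucose and monocarboxylate transporters, glycolytic enzymes, the hypoxia-inducible factor HIF with its hydroxylases, and effectors that HIF is known to induce. They were chosen by gene symbol from a fixed list and located in the mouse GENCODE annotation (mm10). All 33 were among the 30931 genes that could be quantified, and 30 of them were among the 12035 genes with a mean of at least 1 FPKM (fragments mapped to a transcript, scaled to its length and to library size) that were tested.

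The libraries were RNA-seq of oligodendrocyte precursor cells (OPCs), the dividing glial cells from which the myelinating oligodendrocytes of the cord arise. The first set of cells carried a knockout of Gde3 (KO, 3 libraries), the gene annotated as Gdpd2, which encodes an enzyme that releases glycosylphosphatidylinositol-anchored proteins from the cell surface. Their controls were wild type at this gene (WT, 3 libraries). In both groups the strain background was C57BL/6, the source was spinal cord of pups at postnatal day 0.5, the cells were selected on magnetic beads for the glial surface epitope A2B5, and culture lasted 16 h. All cultures held 10 ng/mL PDGF, 10 ng/mL CNTF, 5 µM forskolin and sodium pyruvate, a substrate that mitochondria can use without glycolysis. Neither the culture oxygen level nor the reach of the knockout across tissues is given in these sources.

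Glycolysis splits glucose into pyruvate in the cytosol. The preparatory phase spends ATP to form triose phosphates, and the payoff phase returns ATP and NADH. When oxygen is plentiful, EGLN hydroxylases mark HIF1A for destruction, and when it is scarce HIF1A accumulates and induces glucose uptake, glycolytic enzymes, lactate formation and vessel growth signals. HIF1A is controlled largely through the stability of the protein, which RNA levels do not measure. OPCs are known to use glycolysis, and HIF signalling is known to hold back their maturation in hypoxic white matter.

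Facts of the whole series bear on these values. Exons 9 and 10 of Gdpd2 were assembled over 0% of their length in every KO library and over 100% in WT replicates 2 and 3, while WT replicate 1 held 100% of exon 9 and 21.9% of exon 10. The 10 OPC markers were present in every library, with Pdgfra, the receptor for the PDGF in the medium, at 60.7 to 133.5 FPKM in KO and 76.0 to 130.6 FPKM in WT. Of these markers 3 were higher and 7 lower in KO (median log2 difference -0.14), and 0 passed the threshold used below. In 2 of the 10 every KO library lay below every WT library, beside 3.03% of tested genes. The number of reads is unknown, and relative depths were 0.883 to 0.988 in KO and 0.760 to 1 in WT. Assembled transcripts had a median length of 1174 to 1832 nt in KO and of 438 nt in WT replicate 1. In WT replicates 2 and 3 it was 1496.5 and 1817 nt. The minimum transcript length given below left out 36.8% of assembled transcripts in WT replicate 1. It left out 2.16% to 6.60% in KO, and 3.64% and 2.24% in WT replicates 2 and 3. Summed microglia and macrophage markers were at 101.5 to 190.4 FPKM in KO and 57.1 to 79.1 FPKM in WT, with 10 of 10 markers higher on average in KO, and their part in the results below was not tested. The labels do not say whether replicates are separate animals or litters, so the p-values rest on spread between libraries that may be technical.

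Between genotypes, the glycolytic and hypoxia response genes showed no difference past the threshold. Of the 30 tested members, 15 were higher and 15 lower in KO, beside 48.6% of all tested genes higher in KO, and the median log2 difference was 0.00083, against -0.0055 for all tested genes. The fit was limma on log2(FPKM + 1) with Benjamini-Hochberg adjustment over all tested genes at 0.05. It called 0 members in either direction, where it called 0% of tested genes higher and 0.00831% lower in KO. Of the members, 0 had an unadjusted p under 0.05, beside 1.62% of all tested genes. When the fit was blocked on replicate number, 1 of 30 did, beside 4.25% of all tested genes. In 0 members did every KO library lie above every WT library and in 0 did every KO library lie below, beside 2.04% and 3.03% of tested genes. In bulk RNA, fewer expressing cells and less RNA per cell cannot be told apart.

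**Figure D1:**
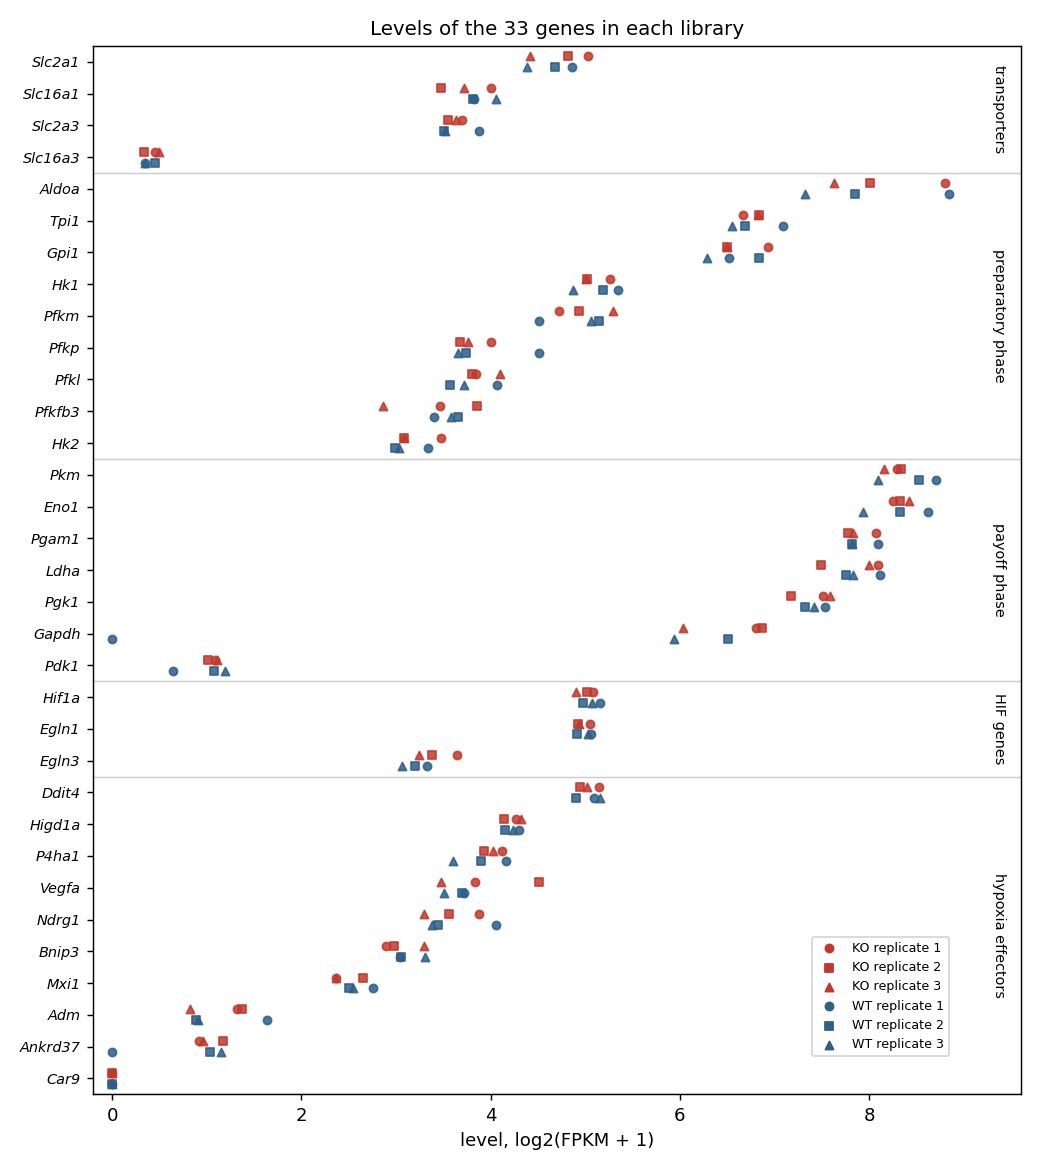
Level of each of the 33 genes on the log2(FPKM + 1) scale, 1 row per gene grouped by role, with the 3 KO libraries (red) drawn just above the 3 WT libraries (blue) and the marker shape giving the replicate number. KO and WT points overlap for every tested gene, Gapdh is at 0 in WT replicate 1, and Car9 is at 0 in all 6 libraries.

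Several glycolytic enzymes were among the abundant genes. Over the 6 libraries 7 members averaged 100 FPKM or more, a level that 4.25% of tested genes reached, and all 7 were glycolytic enzymes: Pkm, Eno1, Aldoa, Pgam1, Ldha, Pgk1 and Tpi1. Gapdh averaged 73.5 FPKM, which includes a 0 in WT replicate 1 that was 390.6 FPKM with no minimum transcript length. In all, 24 members averaged 10 FPKM or more, as did 49.4% of tested genes. At the low end, Car9, the carbonic anhydrase often used as a hypoxia marker, was listed at 0 in all 6 libraries. Ankrd37, an ankyrin repeat gene that HIF is known to induce, was at 0.887, 1.26 and 0.941 FPKM in KO (replicates 1, 2 and 3, the order used throughout) and at 0, 1.04 and 1.21 FPKM in WT. Slc16a3, the lactate exporter gene, was at 0.261 to 0.412 FPKM in KO and 0.270 to 0.370 FPKM in WT. These 3 genes fell under the minimum for testing.

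Among the transporters, Slc2a1 (GLUT1, the main glucose carrier of many proliferating cells) was at 31.6, 27.2 and 20.4 FPKM in KO and at 28.1, 24.6 and 19.9 FPKM in WT. Each KO library exceeded its same-numbered WT library by a little, but the spread between numbers was larger and the groups overlapped (log2 difference 0.11 ± 0.20 SE, limma adjusted p = 0.9999). Blocked on replicate number, the SE was 0.068 and the limma adjusted p 0.809. Slc2a3 (GLUT3, a high-affinity glucose carrier) was at 11.9, 10.7 and 11.4 FPKM in KO and 13.7, 10.4 and 10.4 FPKM in WT. Slc16a1 (MCT1, which carries lactate and pyruvate) was at 15.1, 10.1 and 12.2 FPKM in KO and 13.2, 13.1 and 15.7 FPKM in WT. Its log2 difference was -0.17 ± 0.17 SE, with a 95% interval of -0.57 to 0.24. With FPKM summed over transcripts of any length, the Slc16a1 KO minus WT value was -0.96, outside that interval, and it was called in neither fit. That sum ran over 3 transcripts in WT replicate 1 and over 1 in each other library.

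In the preparatory phase, Aldoa, the aldolase that splits fructose bisphosphate, was the most abundant gene. It was at 444.2, 257.2 and 197.2 FPKM in KO and at 457.0, 230.7 and 158.9 FPKM in WT. Both replicate 1 libraries were high and the genotypes overlapped (log2 difference KO minus WT 0.14 ± 0.47 SE, limma adjusted p = 0.9999). Blocked on replicate number, the SE of Aldoa was 0.11 and its limma adjusted p 0.809. Tpi1, which interconverts the triose phosphates, was at 100.9, 113.3 and 112.1 FPKM in KO and 135.3, 102.1 and 93.0 FPKM in WT. Gpi1, glucose phosphate isomerase, was at 120.7, 89.3 and 89.6 FPKM in KO and 90.8, 113.6 and 77.2 FPKM in WT. Neither gene ordered the libraries by genotype. Hk1, the broadly expressed hexokinase, was at 37.4, 31.4 and 31.3 FPKM in KO and 39.6, 35.4 and 28.4 FPKM in WT. Pfkl, the liver-type phosphofructokinase subunit, was at 13.4, 12.9 and 16.1 FPKM in KO and 15.8, 10.9 and 12.2 FPKM in WT, again overlapping. Pfkfb3, which makes the activator of phosphofructokinase, was at 10.03, 13.4 and 6.25 FPKM in KO and 9.596, 11.6 and 10.999 FPKM in WT. Its low value in KO replicate 3 came with 36.7% of its bases assembled there, against 77.6% to 92.4% elsewhere. Over assembled bases only, its log2 difference was 0.27 in place of -0.16, and it was called in neither fit.

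In the payoff phase, 6 of the 7 genes had a log2 difference between -0.18 and 0.10. Pkm, pyruvate kinase, had the lowest. It was at 312.9, 323.1 and 284.0 FPKM in KO and 418.2, 368.4 and 272.1 FPKM in WT (log2 difference -0.18 ± 0.20 SE, 95% interval -0.66 to 0.30, limma adjusted p = 0.9999). Eno1, enolase, was at 304.1, 320.2 and 342.0 FPKM in KO and 392.9, 319.6 and 243.9 FPKM in WT. Pgam1, phosphoglycerate mutase, was at 268.5, 218.8 and 226.9 FPKM in KO and 272.1, 224.1 and 225.1 FPKM in WT, close to equal at each replicate number. Ldha, which turns pyruvate into lactate, was at 271.8, 179.3 and 254.9 FPKM in KO and 277.1, 214.5 and 226.7 FPKM in WT. Pgk1, which forms the first ATP of the pathway, was at 182.0, 144.0 and 190.7 FPKM in KO and 184.8, 158.6 and 169.5 FPKM in WT. Pdk1, the kinase that keeps pyruvate out of mitochondria, was near the testing minimum, at 1.02 to 1.16 FPKM in KO and 0.561 to 1.29 FPKM in WT.

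Gapdh (ENSMUSG00000057666.18, chr6:125161715-125166467, minus strand), the enzyme that forms NADH in the payoff phase, had the largest difference, and it rested on 1 library. It was at 110.5, 115.9 and 64.4 FPKM in KO and at 0, 89.9 and 60.4 FPKM in WT. The fitted log2 difference was 2.42 ± 1.70 SE, with a limma adjusted p of 0.9999. In WT replicate 1 the gene was present only as pieces of 268 and 124 nt, listed at 1921 and 866.1 FPKM, which fall under the 300 nt minimum set for assembled transcripts. With no minimum, the WT replicate 1 value was 390.6 FPKM, the highest of the 6, and the log2 difference turned to -0.45. Without WT replicate 1 it was 0.34. WT replicate 1 alone was at 0 for 165 tested genes, of which 1 is a member. Other members lost transcripts to the minimum there too, with 3 of 6 kept for P4ha1 and 2 of 3 for Pfkl and Slc16a1. Pfkl also lost transcripts in KO replicate 1 and WT replicate 2. With no minimum, 14 of 30 tested members were higher in KO, and their median log2 difference was -0.0037.

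The mean level over the members showed how much that single value weighed. Over the 30 tested genes the mean log2(FPKM + 1) was 4.99, 4.87 and 4.79 in KO and 4.81, 4.82 and 4.74 in WT, and the genotypes overlapped. Without Gapdh it was 4.93, 4.80 and 4.75 in KO and 4.97, 4.76 and 4.69 in WT. The KO mean minus the WT mean was 0.093 with Gapdh and 0.013 without it, and the WT replicate 1 value became the highest of the 6. In the payoff phase alone the difference was 0.33 with Gapdh and -0.015 without it.

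**Figure D2:**
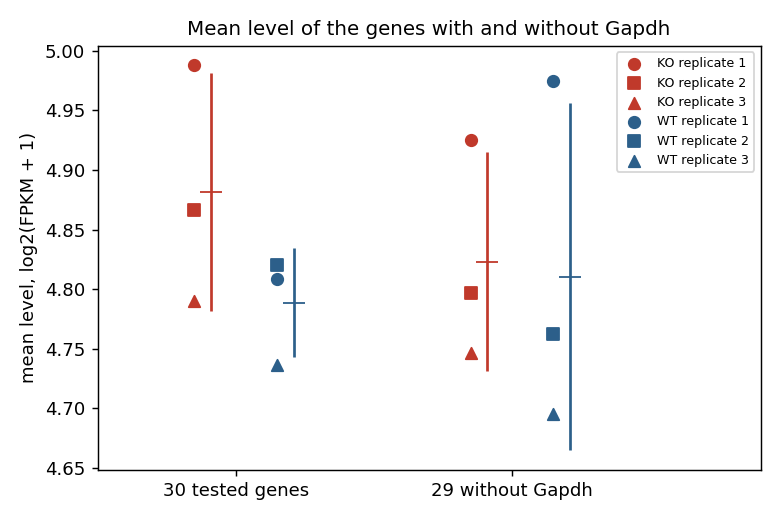
Mean log2(FPKM + 1) over the 30 tested genes (left) and over 29 without Gapdh (right), with KO libraries (red) left of WT libraries (blue), the marker shape giving the replicate number and bars giving the mean ± SD of 3 libraries. WT replicate 1 is at 4.81 with Gapdh and at 4.97 without it, and in both sets KO and WT overlap.

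Hif1a, which encodes the oxygen-regulated HIF subunit, was at 33.01, 31.3 and 29.03 FPKM in KO and at 34.6, 30.4 and 32.6 FPKM in WT (log2 difference -0.061 ± 0.10 SE, 95% interval -0.32 to 0.19). It was assembled over 47.9% of its bases in both replicate 3 libraries, against 84.4% to 85.3% elsewhere, and over assembled bases only the SE of its difference was 0.30. Egln1, the main oxygen-sensing prolyl hydroxylase, was at 32.1, 29.3 and 29.5 FPKM in KO and 32.4, 29.2 and 31.6 FPKM in WT. Its highest library was 1.11 times its lowest, against a median of 1.54 over the members and 1.60 over all tested genes. Egln3 (ENSMUSG00000035105.5, chr12:54178981-54203860, minus strand), a hydroxylase gene that HIF itself is known to induce, was at 11.5, 9.44 and 8.48 FPKM in KO and 9.03, 8.20 and 7.38 FPKM in WT. It was higher in KO at each replicate number, and KO replicate 3 lay below WT replicate 1. Its log2 difference was 0.23 ± 0.14 SE (limma adjusted p = 0.9999). In a fit blocked on replicate number its unadjusted p was 0.042 and its adjusted p 0.809. It was 1 of 30 members with a blocked unadjusted p under 0.05, beside 4.25% of all tested genes, and 0% of tested genes were called with the block. Higher values in KO at all 3 numbers were seen in 4 members, Slc2a1, Hk2, Gapdh and Egln3, and in 13.6% of tested genes. Gapdh counts there through its 0 in WT replicate 1, and 3 members remain without it. Lower values at all 3 were seen in 1 member, Bnip3, and in 15.8% of tested genes.

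Of the effectors, Vegfa (ENSMUSG00000023951.17, chr17:46016993-46032369, minus strand), the vascular growth factor, had the largest difference after Gapdh. It was at 13.3, 21.8 and 10.2 FPKM in KO and 12.2, 12.02 and 10.4 FPKM in WT. A single library, KO replicate 2, stood above the others. The log2 difference was 0.30 ± 0.26 SE (limma adjusted p = 0.9999), and it was 0.014 without KO replicate 2. Ddit4, an inhibitor of mTOR complex signalling, was at 34.4, 29.8 and 31.3 FPKM in KO and 33.2, 28.9 and 34.7 FPKM in WT. Higd1a, a small protein of the inner mitochondrial membrane, was at 18.2, 16.6 and 19.0 FPKM in KO and 18.7, 16.7 and 17.9 FPKM in WT. Both were close to level across all libraries. Ndrg1, a stress-induced gene, was at 13.7, 10.8 and 8.80 FPKM in KO and 15.6, 9.89 and 9.39 FPKM in WT, with the replicate 1 libraries highest in each genotype. Bnip3, a receptor for the removal of mitochondria, was at 6.45, 6.87 and 8.82 FPKM in KO and 7.24, 7.28 and 8.90 FPKM in WT. P4ha1, a collagen prolyl hydroxylase subunit, was at 14.2 to 16.4 FPKM in KO and 11.1 to 16.9 FPKM in WT, and its difference of 0.14 went to -0.39 over assembled bases only. Mxi1, a Myc antagonist, was at 4.15 to 5.29 FPKM in KO and 4.66 to 5.75 FPKM in WT, and Adm, the vasodilator adrenomedullin, at 0.773 to 1.59 FPKM in KO and 0.853 to 2.12 FPKM in WT.

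**Figure D3:**
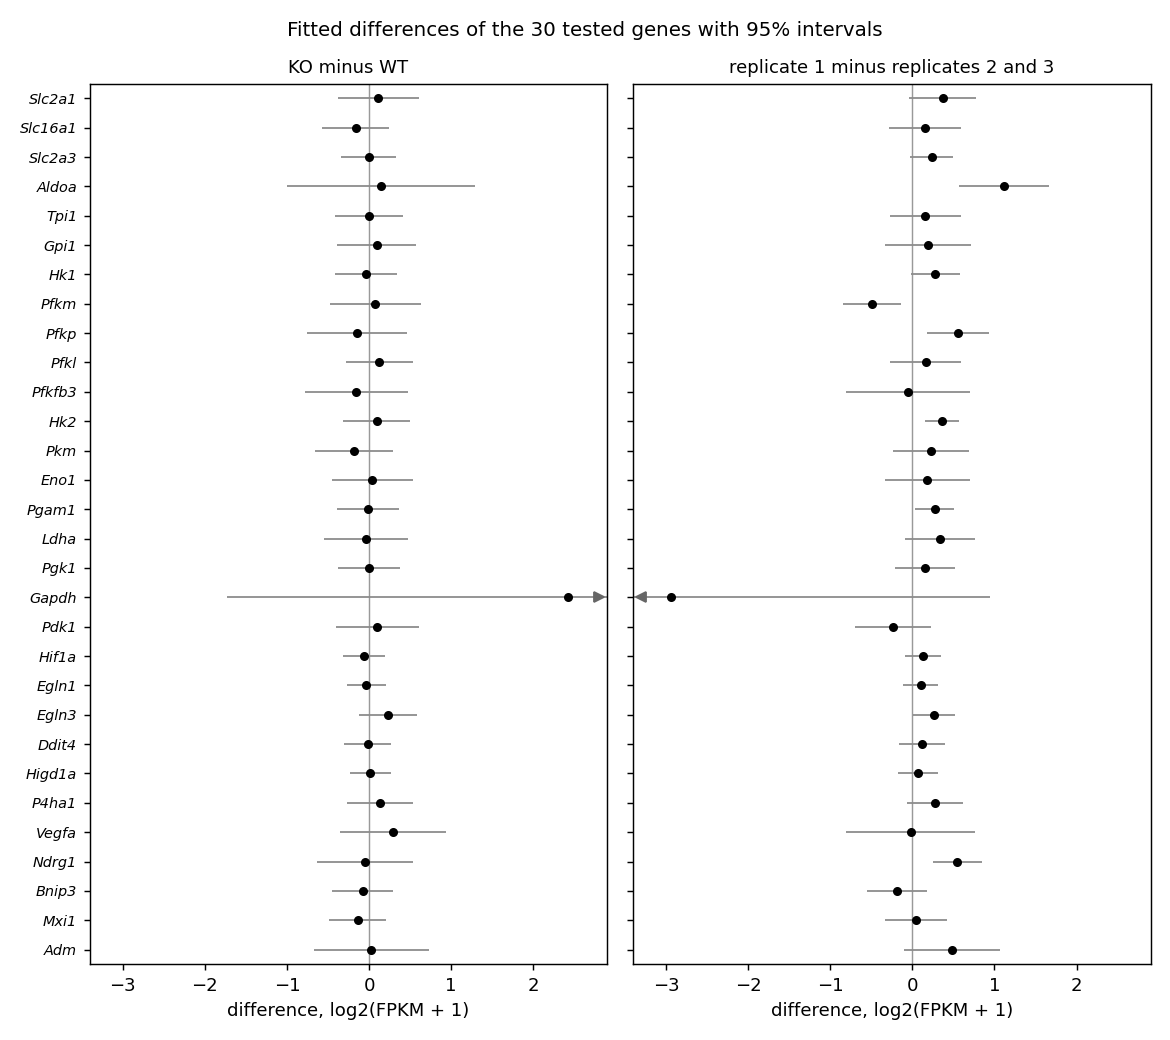
Fitted log2(FPKM + 1) differences of the 30 tested genes with 95% intervals, KO minus WT on the left and replicate 1 minus replicates 2 and 3 on the right, with genes ordered by role and level; arrowheads mark where a Gapdh interval runs past the axis. All intervals on the left, from the fit without a block on replicate number, hold 0, while on the right 24 of 30 points lie above 0.

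The wider pathway gave 0 calls too, in lists that leave out the members. Of 14 other glycolytic isoenzymes and regulators, 4 were higher and 10 lower in KO (median log2 difference -0.060). Hk3, the hexokinase known from myeloid cells, was at 2.56, 3.02 and 4.48 FPKM in KO and 0.762, 1.56 and 2.57 FPKM in WT (0.76 ± 0.31 SE, limma adjusted p = 0.9999), the 1 gene of this list with an unadjusted p under 0.05. The microglia marker sums given above were also higher in KO, and their part in the Hk3 values was not tested. Adpgk, an ADP-dependent glucokinase, and Pgam2, the muscle mutase, followed by p (-0.39 ± 0.35 and -0.39 ± 0.46). Of 16 genes of oxygen sensing and the HIF machinery, 8 were higher and 8 lower (median 0.0045). The HIF partner genes Arnt (-0.19 ± 0.13) and Arnt2 (0.60 ± 0.49) and the ubiquitin ligase scaffold gene Cul2 (-0.16 ± 0.13) had the smallest p.

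Of 34 other hypoxia response genes, 17 were higher and 17 lower in KO (median 0.019). Hmox1, heme oxygenase, was at 151.4, 133.8 and 117.4 FPKM in KO and 135.0, 89.4 and 66.8 FPKM in WT (0.52 ± 0.27 SE, limma adjusted p = 0.9999). In each genotype replicate 1 was the highest, and KO exceeded WT at each number. Gbe1, the glycogen branching enzyme (0.20 ± 0.12), and the hydroxylase gene Jmjd6 (0.19 ± 0.12) came next. Of 30 genes of pyruvate entry and the citric acid cycle, 9 were higher and 21 lower (median -0.038). Cs, citrate synthase, was at 124.2, 71.1 and 88.0 FPKM in KO and 186.0, 161.5 and 103.3 FPKM in WT (-0.66 ± 0.30 SE, limma adjusted p = 0.9999). KO was below WT at each number for Cs, but KO replicate 1 exceeded WT replicate 3. Mpc2, a mitochondrial pyruvate carrier subunit (-0.37 ± 0.31), and Dlst, a subunit of the oxoglutarate dehydrogenase complex (-0.35 ± 0.30), followed. Of 17 pentose phosphate and glycogen genes, 10 were higher and 7 lower (median 0.061), led by p by Pgd (0.19 ± 0.12), Phkg2 (0.16 ± 0.12) and Rpe (-0.34 ± 0.27).

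More members shared a direction between replicate numbers than between genotypes. The first principal component over all tested genes held 36.9% of the variance and set both replicate 1 libraries apart, and the sample identifiers give those libraries another middle number than replicates 2 and 3. Whether that number is a litter, a preparation or a run, the labels do not say. With genotype in the fit, 24 of 30 members were higher in replicate 1, beside 50.7% of all tested genes (median log2 difference 0.17, against 0.0053 for all tested genes). With FPKM summed over transcripts the order of those medians turned, with 0.32 for the members against 0.51 for all genes. Limma called 0 members, where it called 0.349% of tested genes higher and 1.76% lower in replicate 1. In 12 members both replicate 1 libraries lay above the other 4, beside 18.7% of tested genes, and in 1 member, Pfkm, both lay below, beside 21.3%. The number higher was 23 of 30 without KO replicate 1 and 23 of 31 without WT replicate 1. The direction was not particular to the members. Of 30 genes of pyruvate entry and the citric acid cycle, 21 were higher in replicate 1 (median log2 difference 0.18). In 12 of them both replicate 1 libraries lay above the other 4, and in 1 both lay below. The remaining pathway lists had 9 of 14, 9 of 16, 17 of 34 and 8 of 17 genes higher.

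Aldoa (ENSMUSG00000030695.16, chr7:126795234-126800751, minus strand) had the largest such difference among the members other than Gapdh. Gapdh, with its 0 in WT replicate 1, had a fitted log2 difference of -2.94 (95% interval -6.82 to 0.94, limma adjusted p = 0.300). Aldoa was at 444.2 and 457.0 FPKM in the replicate 1 libraries and at 158.9 to 257.2 FPKM in the other 4 (log2 difference 1.11 ± 0.21 SE, limma adjusted p = 0.0700). With array weights, which let limma down-weight poorer libraries, its adjusted p was 0.0472. Ndrg1 was at 13.7 and 15.6 FPKM in replicate 1 and 8.80 to 10.8 FPKM in the others (0.55 ± 0.12 SE, limma adjusted p = 0.0857). Hk2, the hexokinase isoform known to bind mitochondria and respond to HIF, was at 10.1 and 9.15 FPKM in replicate 1 and 6.93 to 7.49 FPKM in the others (0.36 ± 0.08 SE, limma adjusted p = 0.0958).

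Pfkp and Pfkm had differences of opposite sign by number, and neither passed the threshold. Pfkp, the platelet-type subunit, was at 15.1 and 21.8 FPKM in replicate 1 and 11.6 to 12.6 FPKM in the others (0.55 ± 0.15 SE, limma adjusted p = 0.119). Pfkm, the muscle-type subunit, was at 25.3 and 21.9 FPKM in replicate 1 and 29.5 to 38.3 FPKM in the others (-0.49 ± 0.14 SE, limma adjusted p = 0.124). Aldoc, the aldolase isoenzyme known from astrocytes, did pass. It was at 39.5 and 38.3 FPKM in replicate 1 and 72.1 to 90.5 FPKM in the others (-1.05 ± 0.11 SE, limma adjusted p = 0.0360). Aldoc thus made up 7.95% of the summed aldolase A and C level in replicate 1 and 28.0% in replicates 2 and 3. Of the other hypoxia response genes, Wsb1, a ubiquitin ligase adaptor that HIF is known to induce, was lower, at 12.8 and 11.3 FPKM in replicate 1 and 35.1 to 48.4 FPKM in the others (-1.78 ± 0.15 SE, limma adjusted p = 0.0319). Both calls were lost when any 1 of the 6 libraries was left out (limma adjusted p from 0.0829 to 0.207 for Aldoc and from 0.0724 to 0.170 for Wsb1), and with no minimum transcript length (0.0707 for both). Leaving out 1 library kept the differences between -1.20 and -0.90 for Aldoc and between -1.87 and -1.68 for Wsb1, and with no minimum length they were -1.05 and -1.62. With FPKM summed over transcripts, the differences were -0.92 for Aldoc and -0.0034 for Wsb1, and neither was called.

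Marker sums of some other cell types also differed between these libraries. Summed astrocyte markers were at 185.9 to 243.0 FPKM in replicate 1 and 452.6 to 741.5 FPKM in the others, and that list holds Aldoc. Summed proliferation markers were at 594.4 to 605.4 FPKM in replicate 1 and 684.6 to 860.0 FPKM in the others, with Mki67 at 14.2 and 12.1 FPKM against 67.4 to 73.7 FPKM. Of the 10 proliferation markers, 6 were lower in replicate 1 and 4 were higher. Summed endothelial and pericyte markers were at 25.3 to 28.1 FPKM in replicate 1 and 13.3 to 20.8 FPKM in the others. Summed neuron markers were at 157.7 FPKM in KO replicate 1, 298.8 FPKM in WT replicate 1 and 133.1 to 156.3 FPKM in the others. Of 9 neuron markers, 6 were higher in replicate 1. The OPC, oligodendrocyte and microglia sums overlapped between replicate 1 and the others. Hbb-bs, an adult globin gene of red cells, was at 102.2 and 165.3 FPKM in replicate 1 and 21.5 to 50.5 FPKM in the others, and 5 of the 7 erythroid markers were at 0 in all 6 libraries. Red cells are known to carry aldolase A. The libraries ranked the same way by Hbb-bs, a gene named after its values were seen, as by Aldoa. A high level in replicate 1 is not particular to Hbb-bs. The glucose carrier gene Slc2a1 was at 28.1 to 31.6 FPKM in replicate 1 and 19.9 to 27.2 FPKM in the others. Both replicate 1 libraries lay above the other 4 in 18.7% of tested genes. The part of these cells in the members' differences was not tested.

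**Figure D4:**
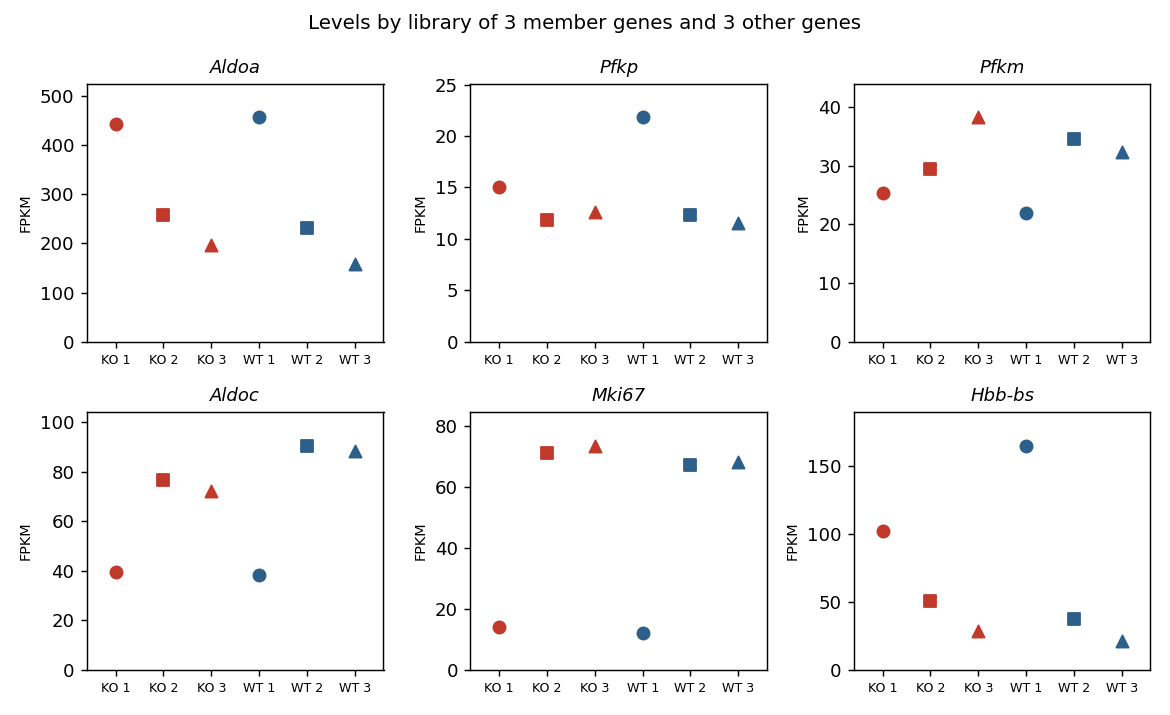
FPKM in each library, KO (red) left of WT (blue), of the members Aldoa, Pfkp and Pfkm (top) and of Aldoc, Mki67 and Hbb-bs (bottom), on axes that start at 0. The replicate 1 libraries (circles) are the highest for Aldoa, Pfkp and Hbb-bs and the lowest for Pfkm, Aldoc and Mki67.

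Within each step of the pathway, the level of related genes, given per length as FPKM, was compared across libraries. For 7 such combinations, an exact two-sided sign-flip permutation test over the 6 libraries was used, adjusted over the 7, in which 0.0312 is the smallest unadjusted p. Hk1 exceeded Hk2 in 6 of 6 libraries (Hk2 minus Hk1 -1.95 ± 0.14 SD on the log2 scale, exact adjusted p = 0.0365). The same adjusted p held for Slc2a1 over Slc2a3 (1.07 ± 0.22 SD), Slc16a1 over Slc16a3 (3.41 ± 0.21 SD) and Egln1 over Egln3 (1.67 ± 0.19 SD), each in 6 of 6 libraries. With Slc16a3 under 1 FPKM, the Slc16a1 minus Slc16a3 value depends on the pseudocount, at 4.96 with 0.1 and 1.77 with 5. Pfkl and Pfkp were each lower than Pfkm in 6 of 6 libraries (-1.09 ± 0.39 and -1.05 ± 0.59 SD, exact adjusted p = 0.0365 each). Pfkl and Pfkp did not order the libraries, with Pfkl higher in 3 of 6 (-0.042 ± 0.27 SD, exact adjusted p = 0.75). The rank of Pfkm depended on the gene value: over assembled bases only, both were lower than Pfkm in 5 of 6 libraries, and with FPKM summed over transcripts the differences were -0.047 and 0.18.

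Pkm makes alternative enzymes, since its transcripts carry either the M1 exon, typical of muscle and neurons, or the M2 exon, typical of dividing cells and induced with glycolytic growth. The exons are shown because they separate the forms that the assemblies could hold. They lie at chr9:59675029-59675195 (M1) and chr9:59675568-59675734 (M2), plus strand, in mm10. Both have 167 bases, of which 103 are the same (61.7%), and capitals mark the bases that differ. The sequences are those of the GENCODE transcripts.

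M1 exon: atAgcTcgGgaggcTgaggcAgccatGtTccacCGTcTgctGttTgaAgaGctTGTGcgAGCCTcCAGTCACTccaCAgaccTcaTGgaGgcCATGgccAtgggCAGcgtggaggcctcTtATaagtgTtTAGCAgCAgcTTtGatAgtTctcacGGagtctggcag

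M2 exon: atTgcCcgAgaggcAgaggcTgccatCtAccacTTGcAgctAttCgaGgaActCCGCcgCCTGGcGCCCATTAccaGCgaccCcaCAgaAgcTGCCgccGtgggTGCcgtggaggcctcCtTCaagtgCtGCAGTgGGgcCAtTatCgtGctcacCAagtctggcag

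Transcripts with the M2 exon predominated in every library. They were at 404.6, 431.0 and 345.2 FPKM in KO and at 465.6, 513.3 and 377.9 FPKM in WT. Transcripts with the M1 exon were assembled in KO replicate 3 (45.1 FPKM) and in WT replicate 1 (79.1 FPKM) and in no other library. The M2 share was 100%, 100% and 88.4% in KO and 85.5%, 100% and 100% in WT, or 96.1% ± 6.68 and 95.2% ± 8.38 (SD, n = 3 each; exact two-sided permutation test p = 1, where 0.1 is the smallest p that 3 against 3 allows). An M1 form too scarce to be assembled would not be seen, so 100% does not show its absence.

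**Figure D5:**
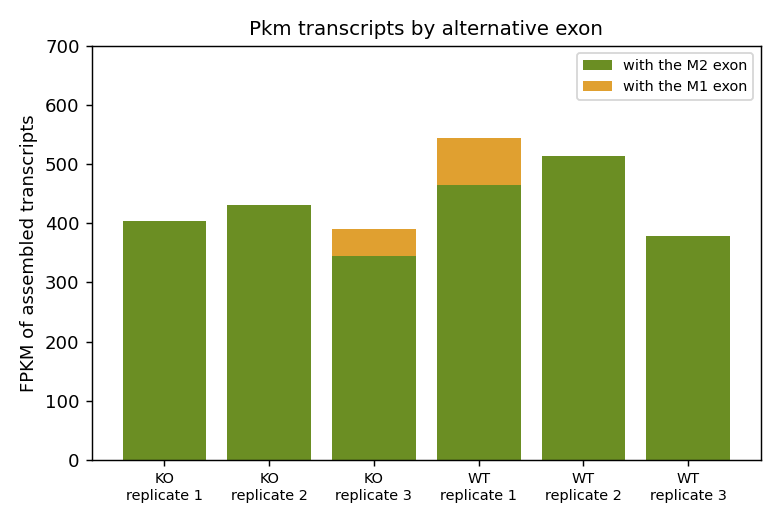
FPKM of assembled Pkm transcripts that carry the M2 exon (green) or the M1 exon (orange, stacked), by library, KO left of WT. The M1 exon appears in KO replicate 3 and WT replicate 1 at 45.1 and 79.1 FPKM.

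HIF binds DNA at short cores, ACGTG or GCGTG, here searched on both strands of the RefSeq promoter windows of 31 members (GRCm38.p6, 46 windows of 300 bases). A palindromic CACGTG counts on each strand. Of these windows 37 held at least 1 core (80.4%), against 43.8% of 32851 windows over all genes. The cores hold a CG, and the members' windows had a median of 21 CG dinucleotides against 7 over all genes. Among windows with 20 CG or more, 26 of 28 member windows held a core (92.9%), against 73.6% of 8701. Counted by gene, 29 of 31 members held a core in at least 1 window, as did 12628 of 27025 genes. Some windows of the same gene overlap. The list holds genes picked because HIF is known to induce them, so a higher share is partly built in. A match is a description of the letters, not evidence of binding.

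3 windows are shown, all with the cores in capitals: that of Ldha, which had the most matches (7), that of Pgk1, a gene long used to study HIF sites (2 matches), and the downstream window of Aldoa, the member other than Gapdh that differed most by replicate number (1 match). They lie at chr7:46845554-46845853 (plus strand), chrX:106186850-106187149 (plus strand) and chr7:126799129-126799428 (minus strand).

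Ldha: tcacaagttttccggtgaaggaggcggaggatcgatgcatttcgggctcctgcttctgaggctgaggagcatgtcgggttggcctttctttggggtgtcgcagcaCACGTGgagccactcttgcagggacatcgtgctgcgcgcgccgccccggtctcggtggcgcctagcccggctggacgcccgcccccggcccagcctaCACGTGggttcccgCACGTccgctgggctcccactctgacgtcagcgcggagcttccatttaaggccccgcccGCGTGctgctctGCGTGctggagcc

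Pgk1: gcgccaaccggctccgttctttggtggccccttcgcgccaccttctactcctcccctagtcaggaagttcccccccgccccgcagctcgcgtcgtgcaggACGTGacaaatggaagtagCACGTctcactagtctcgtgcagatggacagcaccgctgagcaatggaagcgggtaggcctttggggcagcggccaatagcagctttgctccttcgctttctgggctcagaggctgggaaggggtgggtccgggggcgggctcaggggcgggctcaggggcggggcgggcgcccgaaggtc

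Aldoa: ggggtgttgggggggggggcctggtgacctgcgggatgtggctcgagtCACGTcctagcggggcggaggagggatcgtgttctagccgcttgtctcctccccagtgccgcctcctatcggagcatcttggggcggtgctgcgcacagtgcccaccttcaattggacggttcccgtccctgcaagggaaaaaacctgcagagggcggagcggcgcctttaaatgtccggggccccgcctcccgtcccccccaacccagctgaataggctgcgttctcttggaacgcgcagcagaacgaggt

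Beside these letters, Ldha and Pgk1 were at 179.3 to 271.8 and 144.0 to 190.7 FPKM in KO and at 214.5 to 277.1 and 158.6 to 184.8 FPKM in WT, overlapping in both. Slc16a1, Bnip3 and Hk1 (in its downstream window), with 5 matches each, also overlapped between genotypes, as given above.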

How the data were processed

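RNA-seq of 3 Gde3 KO and 3 WT libraries was used, with groups taken from the titles. The submitters' processing notes name mm10, TopHat2 2.1.1 and, both in version 2.2.1, Cufflinks and Cuffdiff, besides FastQC. The authors deposited 1 transcript assembly per library, in which each transcript carries an FPKM and a coverage value per the file contents. Strandedness and read counts are not given in the sources used here, so no count model was used.

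Transcripts of 300 nt or more were placed on the genes of the GENCODE M21 basic annotation by their coordinates. The gene value is their FPKM averaged over exonic bases (200 or more) that no other annotated gene shares. A partly assembled gene thus reads low, and a 0 means that no transcript of 300 nt or more was assembled over those bases. Of symbols with several gene IDs, as for Aldoa, the ID with the most such bases was used. For genes that averaged at least 1 FPKM, log2(FPKM + 1) was fitted in R 4.3.3 with limma 3.58.1 (two-sided, trended empirical Bayes, with genotype alone, or genotype and replicate number 1 against 2 and 3), with Benjamini-Hochberg adjustment over 12035 genes. This scale understates the change of low genes. The code was tested on simulated data.

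The members, the pathway lists and the tests were chosen with earlier results of these data known. Every member is described, and of each pathway list the 3 tested genes with the smallest unadjusted p; Aldoc, Wsb1, Mki67, Hbb-bs and Pdgfra were named after their values were seen. Libraries with the same number in KO and WT shared deviations from their group means (correlation over genes, which are not independent, of 0.369 at number 1, 0.197 at number 2 and 0.291 at number 3, while differently numbered libraries gave -0.277 to 0.0265), and the numbers come from the titles. They were taken to pair the samples. Deviations were taken from the mean of each group, so positive values at equal numbers bring negative ones, on average, at unequal numbers. The contrast with differently numbered libraries is thus partly built in. Differences between genotypes are nonetheless from the fit without a block on replicate number, unless the block is named. With the block, the SE went from 0.20 to 0.068 for Slc2a1 and from 0.17 to 0.070 for Hk2, but stayed at 0.17 for Tpi1. Alternatives covered pseudocounts, filters, scaling, gene values, array weights, the block and left-out libraries.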

Additional observations from a re-analysis of the deposited data

How the results depend on the processing

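Members called between KO and WT numbered 0 under every alternative run, with a lowest adjusted p of 0.809, and their median log2 difference stayed between -0.058 (without WT replicate 3) and 0.077 (without WT replicate 1), while the number higher in KO ran from 9 of 29 to 21 of 31. With the replicate block, 0 genes were called between genotypes in place of 1, and 0 members. The count over all genes was also 0 with a pseudocount of 0.1 or 5, a mean of 5 FPKM or more, or FPKM summed over transcripts, 2 over assembled bases only, 27 without the libraries numbered 1, and 1 to 17 with 1 library left out. By replicate number, 254 genes were called, against 69 over assembled bases only, 0 with the sum, 8 with no minimum transcript length, 557 with array weights and 5 to 46 with 1 library left out, and 1 member, Aldoa, was called with array weights. The sum, which has no minimum transcript length and adds each piece of a gene in full, moved the median of all genes to -0.25 between genotypes and 0.51 by number. Under it 10 members changed sign between genotypes, and Pfkp KO minus WT was -1.11, P4ha1 KO minus WT -0.97 and Hif1a KO minus WT -0.69. Of the 7 combinations of related genes 6 passed, but 0 over assembled bases only or with the sum, where 4 combinations still held in 6 of 6 libraries and Pfkp minus Pfkm turned to 0.18. With 1 library left out 0 passed, since 5 libraries cannot reach the threshold. The Pkm exon choice difference of 0.99 percentage points ran from -3.85 to 4.84 with 1 library left out. The cause of these moves was not tested.

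Depth limits the low genes most: the assembler's own intervals had a median half-width of 3.57% for members at 100 FPKM or more and 12.7% for members under 10 FPKM. A listed 0 can reflect assembly as well as RNA. That of Gapdh in WT replicate 1 reflects short assembled pieces and the minimum length, since with no minimum its value there was 390.6 FPKM.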

Other observations

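The assembled extent of some members differed by replicate number. Hif1a (chr12:73901375-73947530, plus strand, mm10) was assembled over 47.9% of its bases in KO replicate 3 and in WT replicate 3, against 84.4% to 85.3% in the other 4 libraries. Its longest transcript ended at 73945667 in both replicate 3 libraries and reached 73947524 to 73947529 in the others, so that the missing stretch is the far end of the transcript. For Aldoa, both replicate 3 libraries held a transcript of 13 exons that ran on into a second gene of the same symbol (59.1 FPKM in KO and 68.7 FPKM in WT). None of the other 4 held one of 13 exons. KO replicate 1 and WT replicate 2 held transcripts of 4 or 5 exons, at 0.344 to 1.48 FPKM, that spanned from within Aldoa to 126809187 or 126809230. These are values of the assemblies, and no count of reads behind them was available.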
